A study of Mus musculus with 9 samples.

Results

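The comparison described here sets the left ventricle 14 days after ischemia-reperfusion (I/R), a stage at which an infarct has been replaced by scar, against the left ventricle of sham-operated mice. It uses 6 of the 9 libraries of the series: 3 sham mice (1, 2 and 3) and 3 mice at 14 days, whose libraries are called A, B and C because their count columns carry 1 shared name. The letters give no order and pair nothing. Its members are all genes, of which 14124 of the 38293 in the count table passed a filter on low counts and were tested. All mice were male C57BL/6 animals, 8 weeks old per the labels, with 1 mouse behind each library and no transgene or drug named for any group. I/R meant that the left anterior descending coronary artery was tied for 1 hour and then released. Sham mice had a sham surgery, and the time at which their tissue was taken is not stated, so time since surgery cannot be told apart from I/R. The labels name the infarcted region of the left ventricle as the tissue of every sample, sham mice included. The remaining 3 libraries, from mice at 1 day after I/R (4, 5 and 6), entered the same fit and are used beside the 14-day values to show which genes had moved early.

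After an infarct, dead muscle is first cleared by neutrophils and monocytes, and fibroblasts of the ventricle then divide, secrete collagen and assemble it into a scar. As the scar matures, collagen is crosslinked, small leucine-rich proteoglycans space its fibrils, and fibroblasts take on genes of tendon and cartilage. Surviving cardiomyocytes, loaded by the loss of contracting muscle, can turn on genes of the fetal heart such as the natriuretic peptides and the slow myosin heavy chain, and can use less fatty acid. The question put to these libraries was which of these states were measurable at 14 days and which genes had not returned to the sham level.

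Counts per library ranged from 20215781 to 36816818, and from 7217019 to 15969149 without ribosomal RNA genes. Genes encoded by the mitochondrion took 67.4% ± 2.10 (SD, n = 3) of all counts at 14 days and 67.7% ± 3.60 (SD, n = 3) in sham (2-sided exact permutation test, p = 1). Without ribosomal RNA genes, their share was 15.5% ± 1.67 at 14 days and 18.9% ± 2.01 in sham (SD, n = 3 each, 2-sided exact permutation test, p = 0.1, the smallest value that 3 against 3 can give). Sarcomere genes had summed levels of 67439 to 74688 CPM (counts scaled to a common library size) in sham and 53107 to 68377 at 14 days, and the atrial light chain Myl7 had 0 to 3 counts in each of these 6 libraries, so the tissue carried ventricular muscle in each of the 6 libraries. Levels are given throughout as CPM, fold changes as log2 of 14 days over sham with the standard error (SE), and adjusted p-values from edgeR's quasi-likelihood test with Benjamini-Hochberg adjustment over all 14124 genes. A gene is said to have risen or fallen where that p is under 0.05. The groups are bulk tissue, in which fewer cells of a type and less RNA per cell cannot be told apart.

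At 14 days 1236 genes (8.75%) were higher than in sham and 797 (5.64%) were lower. A test against a 2-fold change passed 37 genes (0.262%) upward and 2 genes (0.0142%) downward. The 95% interval of the fold change lay wholly within 2-fold of sham for 10771 genes (76.3%), and 932 genes (6.6%) were both called and bounded in that way. Neither statement could be made for 2252 genes (15.9%). At 1 day, 4153 genes (29.4%) were higher and 3496 (24.8%) lower than in sham. Against 1 day, 3547 genes (25.1%) were higher and 3788 (26.8%) lower at 14 days. The median log2 fold over all genes was 0.01 at 14 days and 0.04 at 1 day.

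The number of calls rested on which mice were compared. Leaving out 1 library at a time gave 478 calls without sham mouse 2, 722 without library B, 775 without library C, 912 without sham mouse 1 and 1025 without sham mouse 3, against 2033 with all. It gave 3012 without library A, 3221 without 1-day mouse 6, 1973 without mouse 4 and 1862 without mouse 5. Scaling by the total count in place of TMM (trimmed mean of M values) left 720 genes higher and 112 lower, so that 86.5% of calls were upward against 60.8% with TMM. Libraries B and C stood farther from sham than library A: on the second principal component the sham libraries lay between 23.5 and 29.8, A at -13.1, B at -35.3 and C at -49.1. Individual calls that ended when a library was left out are given as such beside the gene.

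**Figure D1:**
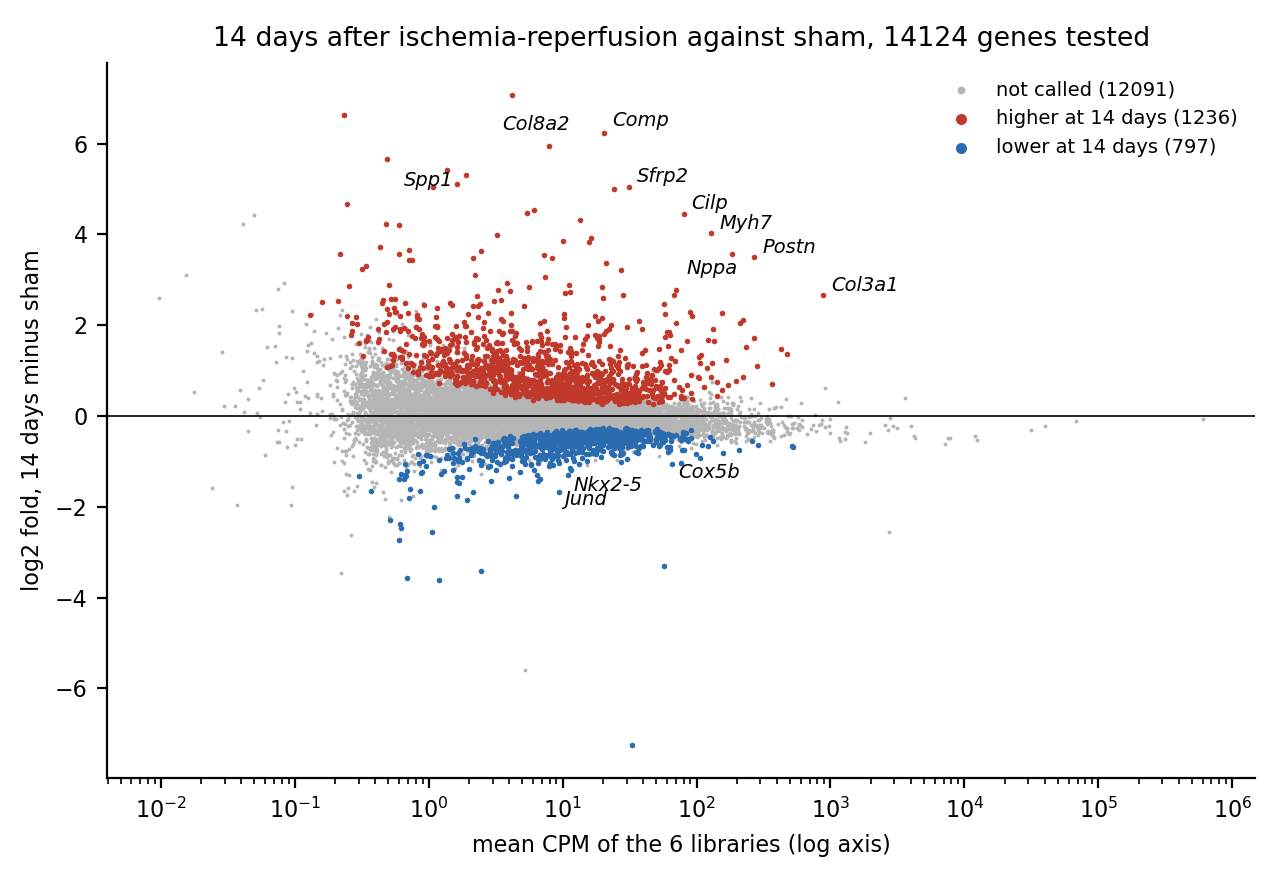
Log2 fold change of 14 days over sham (vertical axis) against the mean level over the 6 libraries in CPM (horizontal axis, log scale) for each of the 14124 tested genes, with called genes in colour. Matrix genes such as Comp, Col8a2 and Sfrp2 and the cardiac stress genes Myh7 and Nppa lie at the top, and few genes lie under a log2 fold of -1.

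The heart muscle stress genes were split. Of 16 tested, 5 rose and 0 fell at 14 days (4 to 8 rises and 0 to 3 falls with 1 library left out), and 8 were bounded within 2-fold of sham (medians 0.46 at 14 days and 2.37 at 1 day). Over all genes 8.75% rose, 5.64% fell and 76.3% were bounded. In a fit of sham and 14-day libraries alone 15 passed the filter, of which 7 rose and 2 fell. The values that follow are from the main fit. The 5 were Myh7, the slow beta myosin heavy chain; Nppa and Nppb, which encode the atrial and B-type natriuretic peptides; Ankrd1, a stretch-responsive titin-binding protein; and Acta1, skeletal alpha-actin. Relative to 1 day, 13 of the 16 were lower at 14 days. The starts below are shown because these 5 were the stress genes still above sham; each is the 250 bases upstream of a RefSeq transcription start in GRCm38.p6, read 5′ to 3′ along the gene. Capitals mark GGAATG or its reverse complement CATTCC, the letters bound by TEAD factors, which act in cardiac muscle genes.

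Nppa, chr4:148000472-148000721, plus strand: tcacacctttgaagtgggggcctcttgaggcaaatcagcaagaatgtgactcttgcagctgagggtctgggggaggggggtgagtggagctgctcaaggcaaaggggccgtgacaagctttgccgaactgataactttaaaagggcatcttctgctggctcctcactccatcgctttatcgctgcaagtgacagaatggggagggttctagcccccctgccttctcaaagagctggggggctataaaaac
Nppb, chr4:147985650-147985899, plus strand: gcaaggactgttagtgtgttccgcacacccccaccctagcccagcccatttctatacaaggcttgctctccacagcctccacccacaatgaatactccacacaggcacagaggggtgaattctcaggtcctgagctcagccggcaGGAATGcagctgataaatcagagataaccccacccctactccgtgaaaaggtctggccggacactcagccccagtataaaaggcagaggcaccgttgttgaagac
Ankrd1, chr19:36119845-36120094, minus strand: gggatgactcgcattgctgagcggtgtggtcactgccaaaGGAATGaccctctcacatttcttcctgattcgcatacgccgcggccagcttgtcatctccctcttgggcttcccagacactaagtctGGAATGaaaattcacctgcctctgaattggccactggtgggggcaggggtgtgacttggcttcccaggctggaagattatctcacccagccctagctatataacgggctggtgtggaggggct
Acta1, chr8:123894776-123895025, minus strand: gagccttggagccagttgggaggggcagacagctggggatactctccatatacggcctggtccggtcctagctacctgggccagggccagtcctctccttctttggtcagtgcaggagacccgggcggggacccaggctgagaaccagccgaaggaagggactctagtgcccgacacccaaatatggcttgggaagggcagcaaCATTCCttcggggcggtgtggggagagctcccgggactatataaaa
Myh7, chr14:54994627-54994876, minus strand: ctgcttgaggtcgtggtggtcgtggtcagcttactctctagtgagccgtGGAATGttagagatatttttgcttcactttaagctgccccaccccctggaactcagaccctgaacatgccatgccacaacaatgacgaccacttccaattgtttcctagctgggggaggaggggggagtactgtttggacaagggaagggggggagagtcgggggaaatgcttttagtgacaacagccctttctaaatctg

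GGAATG on either strand was present in 4 of 6 windows of the 5 risen genes (66.7%; Myh7 has 2 starts, the second without a match), with its first base 105 bases before the start in Nppb, 210 and 123 in Ankrd1, 46 in Acta1 and 201 in Myh7. It was present in 2 of 12 windows (16.7%) of the other stress genes that had a promoter entry, 9 of 11 genes. Among all 32851 RefSeq promoters 12.6% held it, as did 10.8% of the 13164 windows of tested genes. The share was 12.6% for genes that rose and 11.6% for those that fell. Of the other motifs searched, each on both strands, TATAAA was in 3 of the 6 windows (50%; 12.4% of all promoters), AAGTG in 3 (50%; 40.7%) and AGATAA in 2 (33.3%; 9.99%). TGANTCA and TCAAGGTCA were in 0 of 6 (6.75% and 0.387% of all promoters). The 2 Myh7 windows overlap. By the gene positions printed below, which come from GENCODE, the Nppb match and the whole Ankrd1 window lie inside their genes. Motifs may share bases, they were chosen after the values were known, and a match describes these letters only.

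Myh7 (ENSMUSG00000053093, chromosome 14, 54970684 to 54994626, GRCm38) stood at 20.9, 12 and 11.8 CPM in sham mice 1, 2 and 3 and at 206, 183 and 338 CPM in libraries A, B and C. The lowest 14-day library was thus far above the highest sham one, though a rule that named Myh7 required groups without overlap. The mean was 14.9 ± 5.24 in sham and 243 ± 83.5 at 14 days (SD, n = 3 each; log2 fold 4.02, SE 0.35, adjusted p = 0.00121). At 1 day it was 263 ± 82.7 CPM (SD, n = 3), and the change between 1 day and 14 days did not pass the test (log2 fold -0.12, SE 0.30, adjusted p = 0.768). Myh7 shares 13.3% of its exonic bases with another annotated gene, so part of its reads may belong there.

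Nppa (ENSMUSG00000041616, chromosome 4, 148000722 to 148002079) had 42.9, 25.7 and 17.1 CPM in sham and 246, 312 and 469.9 CPM at 14 days, again with no overlap of the groups (log2 fold 3.58, SE 0.35, adjusted p = 0.00151). Its 1-day log2 fold was 3.85, and the 2 times after I/R were not told apart (log2 fold -0.27, SE 0.31, adjusted p = 0.485). Nppa shares 61.5% of its exonic bases with another gene. Its neighbour on chromosome 4, Nppb (ENSMUSG00000029019, chromosome 4, 147985788 to 147987205), behaved otherwise: it stood at 70.4, 66.7 and 41.2 CPM in sham and 123, 136 and 184 CPM at 14 days (log2 fold 1.31, SE 0.23, adjusted p = 0.00597), and it had come down from a log2 fold of 2.87 at 1 day (14 days against 1 day, log2 fold -1.57, adjusted p = 0.000314). Of this pair, Nppb had thus come part of the way back and Nppa had not measurably moved; whether the 2 genes differ in their return was not tested.

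Ankrd1 (ENSMUSG00000024803, chromosome 19, 36111961 to 36120099) went from 326, 267 and 199 CPM in sham to 548, 667 and 815 CPM at 14 days (log2 fold 1.36, SE 0.21, adjusted p = 0.0042), below its 1-day level (log2 fold 14 days against 1 day -1.21, adjusted p = 0.00082). Acta1 (ENSMUSG00000031972, chromosome 8, 123891769 to 123894751) had 141, 141 and 111 CPM in sham and 150.0, 209 and 275 CPM at 14 days (log2 fold 0.69, SE 0.21, adjusted p = 0.0477). Library A lay close to the 2 highest sham libraries, and the Acta1 call ended without sham mouse 1, 2 or 3 or 1-day mouse 4 or 5 or library B or C (adjusted p = 0.0517 to 0.224) and with DESeq2's size factors, total-count scaling, TMM without mitochondrially encoded genes or sham and 14-day libraries fitted alone (adjusted p = 0.053 to 0.0734). The calls of Myh7, Nppa, Nppb and Ankrd1 held whichever of the 9 libraries was left out.

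Of the 11 other stress genes 8 were bounded within 2-fold of sham at 14 days, a share near the 76.3% of all genes. Flnc, the filamin of the Z-disc, was at a log2 fold of 3.56 at 1 day and at -0.31 at 14 days (95% interval -0.83 to 0.21), with 291, 284 and 214 CPM in sham and 222, 208 and 206 CPM at 14 days. Hspb1, a small heat shock protein, went from 3.16 at 1 day to -0.44 (interval -0.87 to -0.01), and Csrp3, a Z-disc LIM protein, from 1.40 to -0.10 (interval -0.43 to 0.24). Enah, an actin assembly factor, went from 2.17 to 0.28 (interval -0.01 to 0.58), and Tnfrsf12a, the TWEAK receptor, from 2.14 to -0.01 (interval -0.55 to 0.53). These 5 were bounded within 2-fold of sham. Xirp2, a Xin actin-binding repeat protein of the intercalated disc, was not: it had 736, 729 and 672 CPM in sham and 937, 1049 and 1302 CPM at 14 days, without overlap but short of the threshold (log2 fold 0.62, adjusted p = 0.074), after 3.10 at 1 day.

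**Figure D2:**
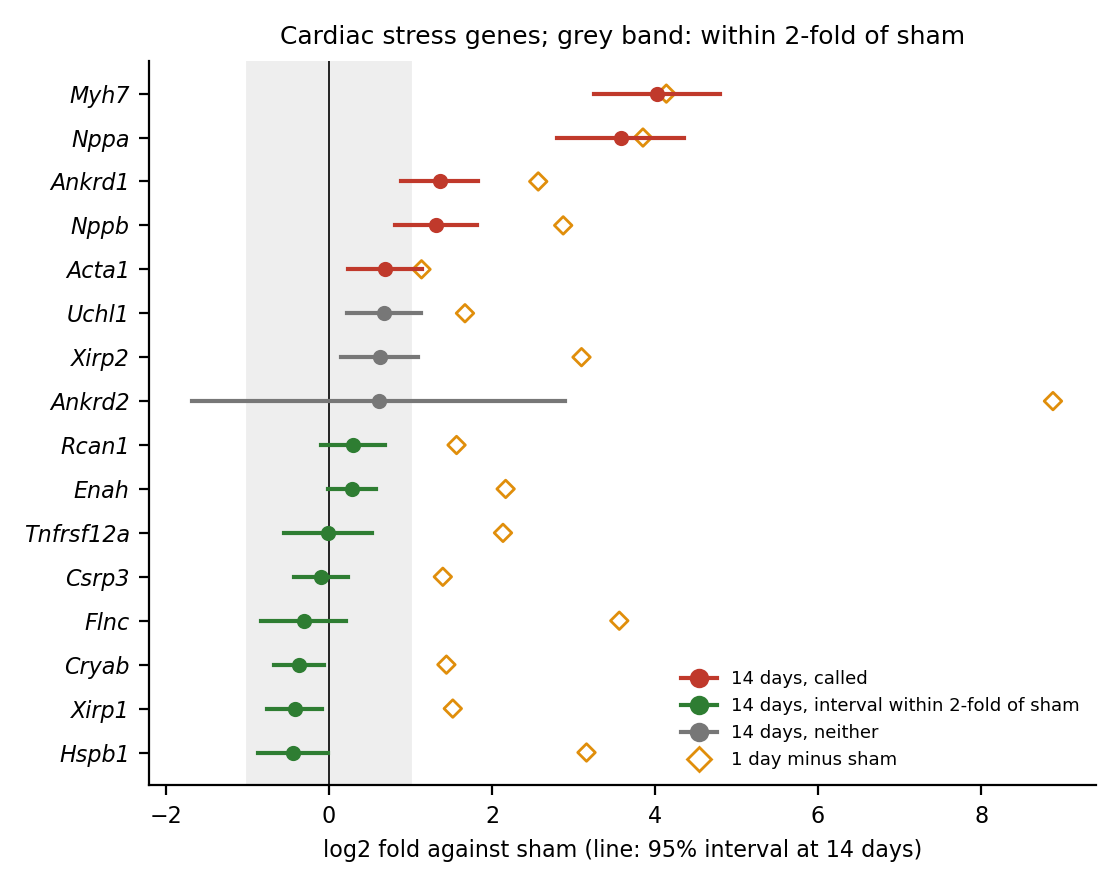
Log2 fold change of 14 days over sham with its 95% interval (horizontal axis) for the 16 tested cardiac stress genes (rows), in red where called, in green where the interval lies within 2-fold and in grey otherwise; diamonds mark the 1-day value. Myh7 and Nppa keep values of 4.02 and 3.58, close to their diamonds, whereas Flnc, Hspb1 and Csrp3 sit near 0 with diamonds at 3.56, 3.16 and 1.40.

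Few genes of the contractile apparatus were called at 14 days. Of 20 tested sarcomere genes, 0 rose, 1 fell and 15 were bounded within 2-fold (median log2 fold -0.22, after -0.54 at 1 day; 0 to 4 falls with 1 library left out and 4 with sham and 14-day libraries alone). The bounded share was near the 76.3% of all genes. In 18 of the 20 the log2 fold was below 0. In 6 all 14-day libraries lay below all sham libraries, as in 18.4% of all genes. Myh6, the fast alpha myosin heavy chain of the adult mouse ventricle, had 9756, 9457 and 8230.4 CPM in sham and 7983, 6113 and 5384 CPM at 14 days. All 14-day libraries lay below all sham libraries, with A nearest to them, and the change did not pass the test (log2 fold -0.49, SE 0.31, adjusted p = 0.314), after a log2 fold of -1.41 at 1 day. It was higher than at 1 day (log2 fold 0.92, adjusted p = 0.0289). Troponin T (Tnnt2) was at -0.22 (interval -0.61 to 0.17), titin (Ttn) at -0.21 (interval -0.77 to 0.34) and the ventricular light chain Myl2 at -0.05 (interval -0.54 to 0.43). Outside that list, Speg (ENSMUSG00000026207, chromosome 1, 75375297 to 75432320), a striated muscle kinase of the junctional membrane, fell from 114, 103 and 90.4 CPM to 60.7, 46.9 and 41.3 CPM (log2 fold -1.04, SE 0.15, adjusted p = 0.00336), without overlap. The rule that named Speg required this separation. Its fold, that of Speg, was -0.53 under an offset for GC content and length (adjusted p = 0.0182).

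Of 16 calcium handling genes, 2 rose, 1 fell and 11 were bounded (0 to 2 rises and 1 to 3 falls with 1 library left out), counts near the shares of 8.75% and 5.64% over all genes. Atp2a2, the sarcoplasmic calcium pump, had 5204, 4866 and 4411 CPM in sham and 4272, 3388 and 2955 CPM at 14 days (log2 fold -0.45, SE 0.31, adjusted p = 0.352), with all 14-day libraries below all sham libraries but a change that did not pass. It had been at -1.32 at 1 day. Jph2, junctophilin, which ties the sarcoplasmic reticulum to the T-tubule, was the member that fell, from 145, 127 and 112 to 89.1, 64.1 and 61 CPM (log2 fold -0.84, SE 0.16, adjusted p = 0.00678). Of 23 sodium and potassium channel genes, 3 fell (against 5.64% of all genes), 0 rose and 9 were bounded (median -0.53, after -1.22 at 1 day). The 3 were the pacemaker channels Hcn2 (log2 fold -0.91, adjusted p = 0.0239) and Hcn4 (-1.17, 0.00893) and the potassium channel Kcnq1 (-0.56, 0.0449). These calls ended without sham mouse 1, 2 or 3 or library B or C (adjusted p = 0.0574 to 0.102) and with the offset for GC content and length (adjusted p = 0.74) for Hcn2, without sham mouse 2 (adjusted p = 0.0611) for Hcn4 and without sham mouse 1, 2 or 3 or 1-day mouse 4 or library B or C (adjusted p = 0.0559 to 0.178) and with total-count scaling or the offset for GC content and length (adjusted p = 0.083 to 0.167) for Kcnq1. The list's count of falls ran from 0 to 10 with 1 library left out and was 10 in a fit of sham and 14-day libraries alone and 1 with the offset for GC content.

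Kcnip2, the subunit that sets the transient outward potassium current, had been among the genes most reduced at 1 day (log2 fold -2.77). At 14 days it had 66, 55.3 and 40.1 CPM against 69.6, 69.7 and 58.9 CPM in sham, overlapping groups (log2 fold -0.30, interval -1.18 to 0.58), and it was higher than at 1 day (log2 fold 2.47, adjusted p = 0.00137). Of 14 intercalated disc genes, all 14 were bounded within 2-fold, among them Gja1, connexin 43 (-0.14, interval -0.55 to 0.27). Plakoglobin (Jup) fell within that bound (log2 fold -0.43, SE 0.11, adjusted p = 0.0272). The call of Jup ended without sham mouse 1 or 2 or library B or C (adjusted p = 0.105 to 0.121) and with total-count scaling or the offset for GC content and length (adjusted p = 0.111 to 0.317).

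Of 14 cardiac transcription factors tested, 8 fell (against 5.64% of all genes) and 0 rose (3 to 9 falls with 1 library left out), with 10 bounded within 2-fold and a median of -0.32 (-0.24 at 1 day). Nkx2-5 (ENSMUSG00000015579, chromosome 17, 26838664 to 26845009), the homeobox factor of the heart muscle lineage, had 15.6, 15.5 and 16 CPM in sham and 8.83, 5.28 and 4.99 CPM at 14 days. The sham libraries lay close together and all 14-day libraries lay below them (log2 fold -1.30, SE 0.19, adjusted p = 0.00341). The rule that named Nkx2-5 required groups without overlap. At 1 day it had not passed (-0.37), and 14 days lay below 1 day (log2 fold -0.93, adjusted p = 0.00212). Hand2 fell from 9.96, 9.13 and 11.4 CPM to 5.57, 6.04 and 6.17 CPM (log2 fold -0.77, SE 0.12, adjusted p = 0.0042), with 19.6% of its exonic bases shared with another gene. Prdm16, which holds ventricular muscle identity, fell too (log2 fold -0.75, SE 0.13, adjusted p = 0.00503; not passed with total-count scaling at adjusted p = 0.0512). Mef2c was at 0.03 and Tbx20 at 0.28, neither passing.

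Falls over all genes went with base composition. The median GC content was 56.5% over genes that fell, 47.6% over genes that rose and 49.2% over genes not called. In the 1397 genes with the highest GC content (57.6% to 73.7%), the median log2 fold was -0.26, with 61 genes higher and 317 lower. In the 1397 with the lowest GC content (27.5% to 41.2%) it was 0.14, with 180 higher and 4 lower. The first of these sets stood at -0.18, -0.31 and -0.28 in libraries A, B and C and at 0.06, 0.01 and -0.07 in sham mice 1, 2 and 3. With an offset for GC content and length, chosen after the data were seen, Nkx2-5 was at -0.34 (adjusted p = 0.103), Jph2 at -0.43 (adjusted p = 0.0508), Hcn2 at -0.14 (adjusted p = 0.74) and Srf, the serum response factor, at 0.06 from -0.59. The fall of Srf also ended without sham mouse 1 or 2 or library B or C (adjusted p = 0.0518 to 0.0769) and with total-count scaling (adjusted p = 0.151). Of the 14 factors 5 fell under that offset: Prdm16 at -0.75, Hand2 at -0.59, Gata4 at -0.38 from -0.46, Gata6 at -0.30 from -0.32 and Tead1 at -0.40 from -0.32. The fall of Gata4 ended without sham mouse 2 or library C (adjusted p = 0.0526 to 0.0732) and with total-count scaling (adjusted p = 0.287). That of Gata6 ended without sham mouse 1, 2 or 3 or library B or C (adjusted p = 0.0638 to 0.153) and with total-count scaling or no filter on low counts (adjusted p = 0.0671 to 0.563). Tead1's fall ended without sham mouse 1, 2 or 3 or 1-day mouse 5 or library A, B or C (adjusted p = 0.0572 to 0.174) and with total-count scaling, upper-quartile scaling or no filter on low counts (adjusted p = 0.0512 to 0.521). Total-count scaling left 2. Over all genes, 910 of the 1236 rises (73.6%) and 539 of the 797 falls (67.6%) held under the offset. The part of GC content in these results was otherwise not tested.

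Genes of energy metabolism were nearer to sham than at 1 day, and the calls that remained were mostly downward. Of 56 nuclear-encoded oxidative phosphorylation genes, 55 had been lower at 1 day (median -0.90). At 14 days 8 fell, 0 rose and 51 were bounded within 2-fold (median -0.31, with 55 of 56 values below 0). In 36 of the 56 all 14-day libraries lay below all sham libraries, against 18.4% of all genes. Cox5b (ENSMUSG00000061518, chromosome 1, 36691449 to 36693681), a subunit of cytochrome c oxidase, had 83.4, 88.3 and 95.7 CPM in sham and 52.4, 39.6 and 36.3 CPM at 14 days (log2 fold -1.06, SE 0.15, adjusted p = 0.00319). Against 1 day it did not pass (log2 fold 0.00, SE 0.15, adjusted p = 0.98), and under the offset for GC content it stood at -1.14. Ndufs3, a subunit of complex I, fell from 34, 34.1 and 35.1 CPM to 23.4, 16.9 and 16.2 CPM (log2 fold -0.86, SE 0.15, adjusted p = 0.00635). The other 6 falls, Atp5d, Cox5a, Ndufb7, Ndufs7, Uqcrc1 and Uqcrq, were of subunits of the respiratory complexes and the ATP synthase. Each of these 6 calls ended without sham mouse 2 or library B. All but that of Uqcrq also ended without sham mouse 3 or library C, and those of Cox5a, Ndufb7, Ndufs7 and Uqcrc1 without sham mouse 1. That of Uqcrc1 ended without 1-day mouse 4 too (adjusted p = 0.053 to 0.169 over these fits). Total-count scaling ended all of them but Ndufs7, and the offset for GC content and length ended those of Atp5d and Ndufs7. The count of falls in this list ran from 2 to 24 with 1 library left out, was 23 in a fit of sham and 14-day libraries alone and was 3 with total-count scaling.

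For fuel use the calls were fewer. All 18 tricarboxylic acid cycle genes were bounded within 2-fold with 0 calls by edgeR (8 at an unadjusted p under 0.05, 2 by DESeq2 and 0 by limma-voom). Their medians were -0.33, and -0.88 at 1 day. At 14 days all 18 values were below 0. In 15 of the 18 all 14-day libraries lay below all sham libraries, against 18.4% of all genes. Of 28 genes for taking up and oxidising fatty acids 1 rose, 1 fell and 22 were bounded (medians -0.44, and -1.15 at 1 day). Over all genes 8.75% rose, 5.64% fell and 76.3% were bounded. Of the 28 values at 14 days 27 were below 0, and 23 genes lay below sham without overlap. With 1 library left out, falls ran from 0 to 10 in the cycle and from 0 to 18 in fatty acid use, and the fit of sham and 14-day libraries alone gave 9 and 17. The fatty acid transporter Cd36 was at -0.08 (interval -0.46 to 0.29), and Hadha, of the mitochondrial trifunctional protein, at -0.40 (interval -0.85 to 0.05). Cpt1a, the carnitine palmitoyltransferase form that is abundant in liver and fetal heart, was the member that rose, from 33.7, 26.2 and 30.2 CPM to 40.6, 42.3 and 41.8 CPM (log2 fold 0.47, SE 0.12, adjusted p = 0.0261). The call of Cpt1a ended without sham mouse 2 or 3 or library B or C (adjusted p = 0.0774 to 0.134) and with total-count scaling (adjusted p = 0.0712). Esrra, a nuclear receptor that drives mitochondrial genes, fell (log2 fold -0.81, SE 0.17, adjusted p = 0.0113). The call of Esrra ended without sham mouse 2 or library B or C (adjusted p = 0.0526 to 0.0584). Pdk4, which diverts pyruvate from oxidation, had been at -2.16 at 1 day and was at -0.34 at 14 days (interval -0.85 to 0.17). Ckm, the muscle creatine kinase, fell (log2 fold -0.67, SE 0.18, adjusted p = 0.0274). The call of Ckm ended without sham mouse 1, 2 or 3 or library B or C (adjusted p = 0.0572 to 0.129) and with total-count scaling (adjusted p = 0.085).

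In the plot of list levels by library, sarcomere genes lay at -0.05, -0.26 and -0.36 (log2 CPM relative to the sham mean, median over members) in A, B and C, oxidative phosphorylation at -0.11, -0.37 and -0.49 and fatty acid use at -0.15, -0.51 and -0.67. Fibrillar collagens lay at 1.35, 1.77 and 2.34 in the same libraries. The muscle and matrix lists thus stood farthest from sham in the same library, C, and nearest in A. The part of a changed share of muscle tissue in the muscle values was not tested.

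**Figure D3:**
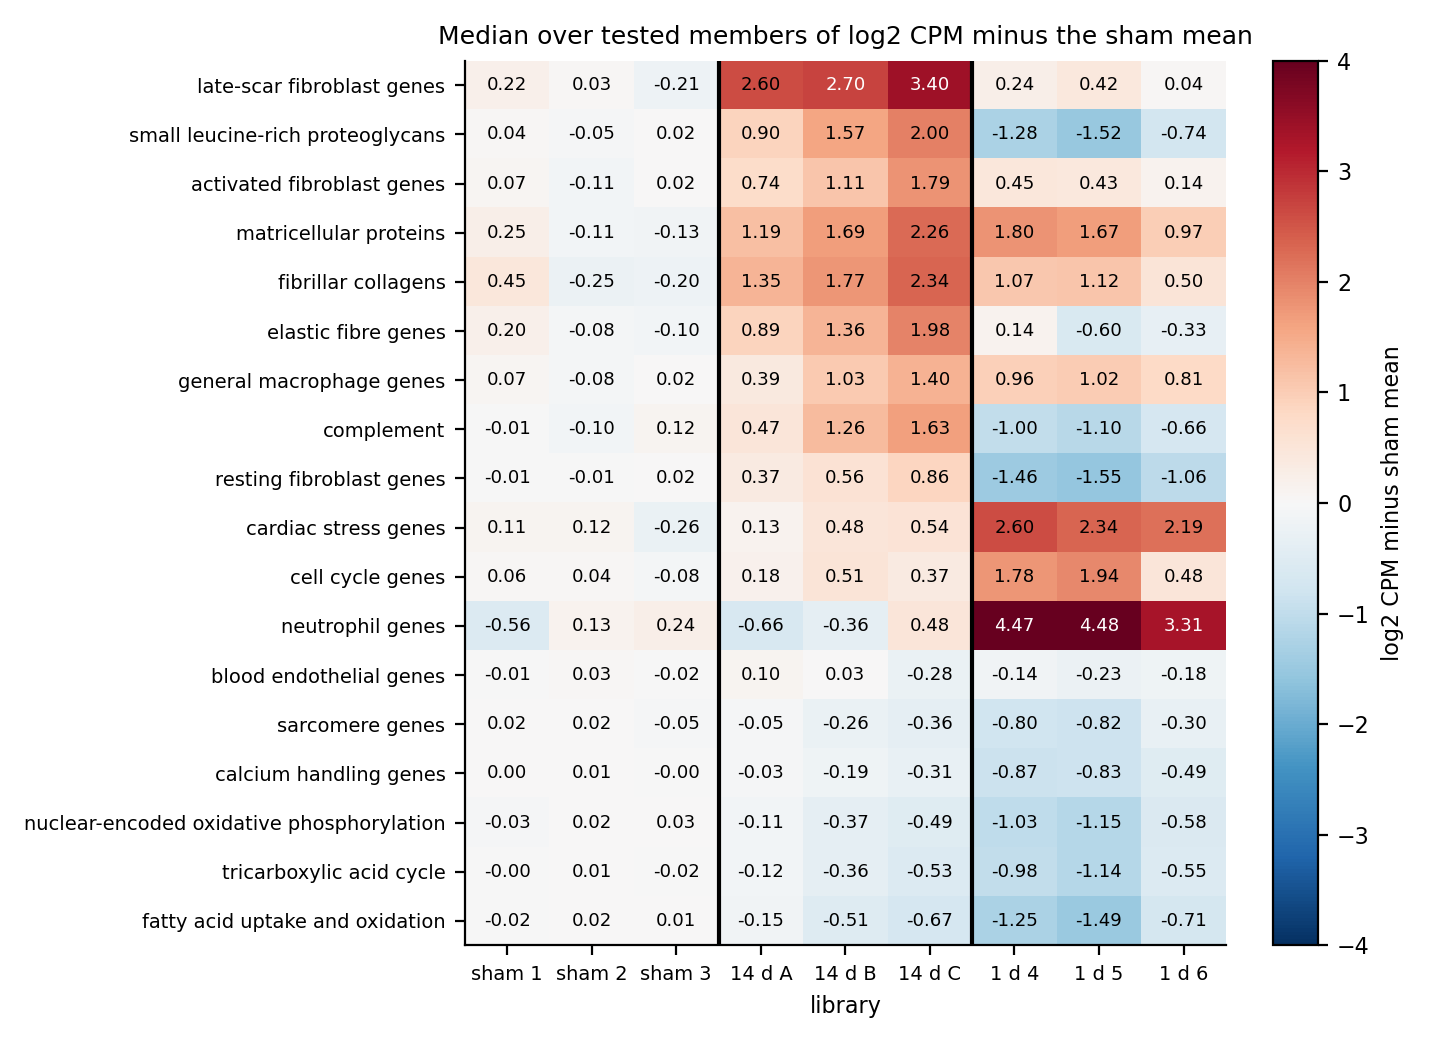
Median log2 CPM of the members of 18 gene lists (rows) in each of the 9 libraries (columns), relative to the sham mean. Matrix, complement and macrophage lists are above sham in A, B and C, the metabolic lists lie slightly below it, and the neutrophil list is high only in the 1-day libraries.

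Many extracellular matrix genes rose. Of 9 fibrillar collagen genes tested, 6 rose and 1 fell (against 8.75% and 5.64% of all genes), with a median of 1.67 at 14 days and 0.85 at 1 day. Col3a1 (ENSMUSG00000026043, chromosome 1, 45311538 to 45349706), the chain of type III collagen, had 385, 145 and 192 CPM in sham and 878, 1442 and 2241 CPM at 14 days (log2 fold 2.66, SE 0.42, adjusted p = 0.00544). Every 14-day library lay above every sham library, and sham mouse 1 was well above the other two. Type I collagen is the main collagen of mature scar. Its chain Col1a2 had 133, 59.1 and 58.3 CPM in sham and 225, 336 and 529.7 CPM at 14 days (log2 fold 2.12, SE 0.40, adjusted p = 0.0115). The call of Col1a2 ended without sham mouse 2 (adjusted p = 0.0528) and with total-count scaling (adjusted p = 0.0646). Col1a1 had 104, 33.9 and 36.9 CPM in sham and 129, 173 and 257 CPM at 14 days (log2 fold 1.67, SE 0.45, adjusted p = 0.0396). The call of Col1a1 ended without sham mouse 2 or 3 or 1-day mouse 6 or library A, B or C (adjusted p = 0.054 to 0.187) and with total-count scaling, no filter on low counts or sham and 14-day libraries fitted alone (adjusted p = 0.0849 to 0.17). Sham mouse 1 was 1 of 3 sham libraries and lay above the others for all 3 of these genes; the list stood at 0.45 in it and at -0.25 and -0.20 in sham mice 2 and 3. Rises in the list ran from 3 to 6 with 1 library left out, and total-count scaling gave 3. Col11a2, a minor fibrillar chain, fell (1.00, 1.11 and 1.15 to 0.416, 0.322 and 0.327 CPM; log2 fold -1.60, SE 0.26, adjusted p = 0.00471).

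Collagens that link or coat fibrils were also higher. Of 13 network, beaded and fibril-associated collagens 9 rose and 0 fell (median 1.46, against -0.13 at 1 day), with 7 to 10 rises when 1 library was left out. A member scarce in sham could pass the filter through its 14-day level, so these values may lean upward. Col8a2 was such a member, with 0.251, 0.202 and 0.319 CPM in sham. Col8a1 (type VIII collagen, a short-chain network collagen) had 19.8, 18.7 and 17.1 CPM in sham and 71.8, 115 and 166 CPM at 14 days (log2 fold 2.66, SE 0.27, adjusted p = 0.00151). Col12a1 and Col14a1, which bind to the surface of type I fibrils, rose by 3.92 and 2.46, Col16a1 by 1.96, and the beaded chains Col6a1 and Col6a3 by 1.13 and 1.46 on the log2 scale. Of 17 basement membrane chains 7 rose, 12 were bounded within 2-fold and the median was 0.42, with 0 to 10 rises when 1 library was left out and 4 with total-count scaling. Col4a1, the main chain of the basement membrane, was at 0.16 (interval -0.20 to 0.52) after 1.20 at 1 day.

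Collagen is folded by chaperones and prolyl hydroxylases, trimmed by proteases outside the cell and then crosslinked. Among 23 genes of these steps, 11 rose, 0 fell and 11 were bounded (median 0.61, against 0.92 at 1 day; 5 to 12 rises with 1 library left out and 7 with total-count scaling). Lox, lysyl oxidase, had 10.2, 2.73 and 2.75 CPM in sham and 30.3, 43.6 and 74.2 CPM at 14 days (log2 fold 3.22, SE 0.65, adjusted p = 0.0169). The call of Lox ended without sham mouse 2 or library C (adjusted p = 0.0597 to 0.0649) and with total-count scaling or no filter on low counts (adjusted p = 0.0506 to 0.0845). Loxl2, a second crosslinking enzyme, had 12.2, 9.13 and 8.95 CPM in sham and 16.2, 22.4 and 31.3 CPM at 14 days (log2 fold 1.20, SE 0.22, adjusted p = 0.00785). Adamts2, which cuts off the procollagen N-propeptide, rose from 17.2, 12.6 and 12.7 to 36.9, 59.4 and 85.2 CPM (log2 fold 2.09, SE 0.28, adjusted p = 0.0038). Serpinh1, the collagen chaperone HSP47, was instead at 0.09 (interval -0.39 to 0.57), after 1.32 at 1 day, and was lower than at 1 day (log2 fold -1.22, adjusted p = 0.00103). The prolyl hydroxylase subunit P4ha1 was at -0.13 (interval -0.38 to 0.11).

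The small leucine-rich proteoglycans, which coat collagen fibrils and set their spacing, rose in 9 of 10 tested, with 0 lower. Their median was 1.56 at 14 days and -1.24 at 1 day, and 6 to 9 rose with 1 library left out. Dcn, decorin (ENSMUSG00000019929, chromosome 10, 97479609 to 97518143), had 226, 215 and 238 CPM in sham and 423, 591 and 877 CPM at 14 days (log2 fold 1.48, SE 0.26, adjusted p = 0.00597). At 1 day it had been below sham (log2 fold -1.17). Lum, lumican, went from 32.1, 26.7 and 32.7 CPM to 87.9, 142 and 219.8 CPM (log2 fold 2.30, SE 0.29, adjusted p = 0.00319). Aspn, asporin, went from 18.5, 17 and 17.9 CPM to 73, 108 and 185 CPM (log2 fold 2.78, SE 0.31, adjusted p = 0.00277). Groups did not overlap for either. Omd, osteomodulin, was at -2.97 at 1 day and at 2.64 at 14 days. Ogn, osteoglycin, rose by 1.18 (adjusted p = 0.0341). The call of Ogn ended without sham mouse 1, 2 or 3 or library B or C (adjusted p = 0.0802 to 0.153) and with no filter on low counts or the offset for GC content and length (adjusted p = 0.0508 to 0.124). Podn, podocan, was at 0.10.

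Genes of the late scar fibroblast, with features of tendon and cartilage, held many of the largest folds. Of 12 tested, 8 rose (Acan, Angptl7, Cilp, Cilp2, Comp, Fmod, Sox9 and Thbs4), 0 fell and 3 were bounded (median 3.58, against 0.17 at 1 day; 6 to 9 rises with 1 library left out). The filter passes a gene on the strength of 3 libraries, so a member scarce in sham can enter through its 14-day level alone. The count of rises and the median may therefore lean upward. The same limit holds for other lists with members scarce in sham. Spp1 among the matricellular proteins and Cthrc1 among the activated fibroblast genes are examples, and either may have entered through its levels after I/R. Cilp, cartilage intermediate layer protein, which binds TGF-beta (ENSMUSG00000042254, chromosome 9, 65265180 to 65280605), had 7.29, 7.08 and 6.52 CPM in sham and 72.3, 152 and 234 CPM at 14 days (log2 fold 4.45, SE 0.40, adjusted p = 0.00151), and at 1 day it had not passed the test (log2 fold 0.31). Fmod, fibromodulin, rose from 0.628, 0.539 and 0.256 to 5.99, 10.3 and 19.3 CPM (log2 fold 4.54, SE 0.66, adjusted p = 0.00503). Thbs4, the thrombospondin of tendon, rose from 1.09, 1.08 and 1.92 to 12.8, 22.9 and 41.8 CPM (log2 fold 4.31, SE 0.50, adjusted p = 0.00302). Angptl7, a secreted angiopoietin-like protein, rose from 0.544, 0.438 and 0.383 to 5.96, 9.5 and 15.9 CPM (log2 fold 4.48, SE 0.42, adjusted p = 0.00121). Cilp, Fmod, Thbs4 and Angptl7 lay without overlap between groups, which the rule that named them required. The call of Sox9 ended without sham mouse 1 or 2 or library B or C (adjusted p = 0.0614 to 0.101). The call of Cilp2 ended without sham mouse 2 (adjusted p = 0.0513). Of 14 cartilage and bone genes only 4 passed the filter on low counts, of which 1, Runx2, rose. The call of Runx2 ended without sham mouse 1, 2 or 3 or library B or C (adjusted p = 0.0621 to 0.119) and with limma-voom (adjusted p = 0.0611).

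**Figure D4:**
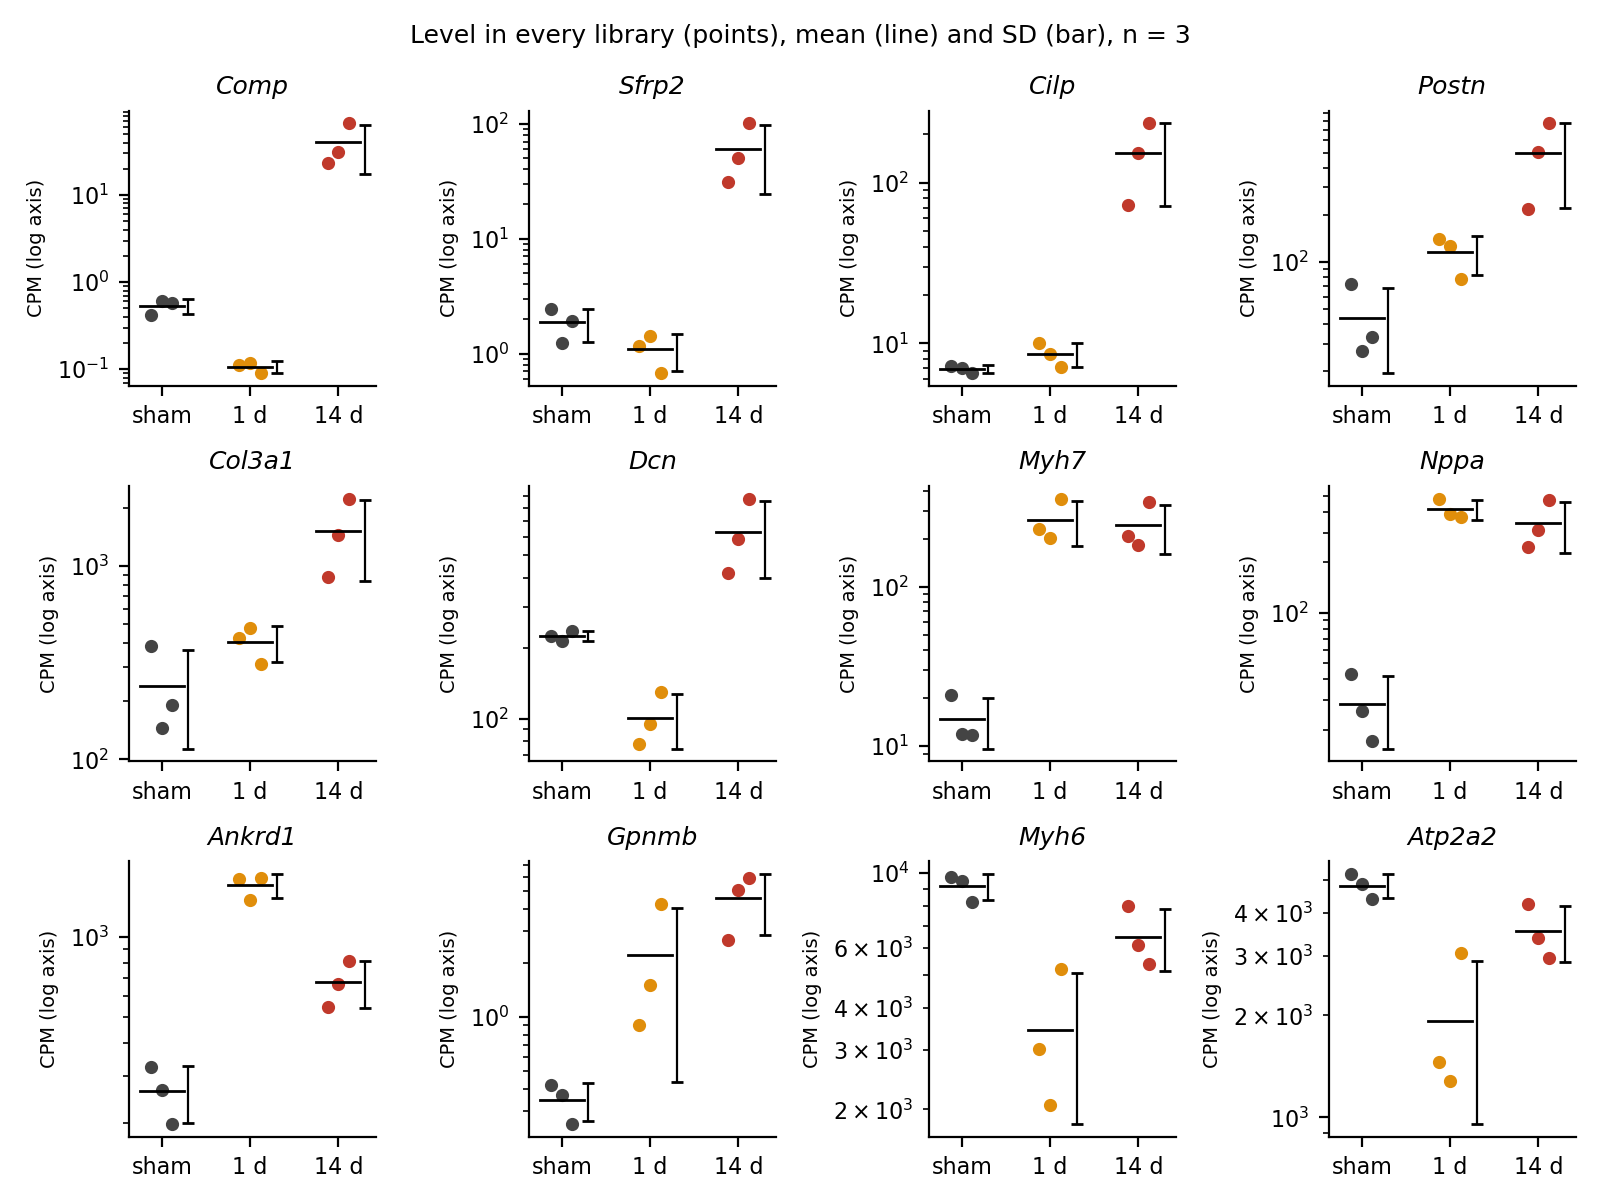
CPM (log axis) of 12 genes in each library of the 3 groups, with points for libraries, a line for the mean and a bar for the SD (n = 3). Cilp and Sfrp2 are near sham at 1 day and high at 14 days, Dcn dips at 1 day and rises above sham at 14 days, Myh7 and Nppa lie near their 1-day level, and the means of Myh6 and Atp2a2 at 14 days lie between those of 1 day and sham.

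Matricellular proteins, which signal to cells from the matrix without bearing load, rose in 13 of 17 tested, with 0 lower (median 1.71, against 1.39 at 1 day; 9 to 14 rises with 1 library left out). Postn, periostin (ENSMUSG00000027750, chromosome 3, 54361109 to 54391037), the marker of activated cardiac fibroblasts, had 72.3, 26.8 and 33.1 CPM in sham and 219, 503 and 768 CPM at 14 days (log2 fold 3.49, SE 0.54, adjusted p = 0.00588), and was higher than at 1 day (log2 fold 2.11, adjusted p = 0.00731). Sparc, a collagen-binding matricellular protein, rose from 139, 117 and 119 to 284, 401 and 538 CPM (log2 fold 1.71, SE 0.21, adjusted p = 0.00238). Other members were past an early peak. Spp1, osteopontin, was at a log2 fold of 10.07 at 1 day and at 5.11 at 14 days, with 1.63, 3.25 and 4.62 CPM against 2, 3 and 1 counts in the sham libraries, so its fold is imprecise. Tnc, tenascin C, had a log2 fold against sham of 5.54 at 1 day. It had 5.48, 1.45 and 1.73 CPM in sham and 8.31, 16.9 and 33.7 CPM at 14 days (log2 fold 2.74, SE 0.61, adjusted p = 0.0205). The call of Tnc ended without sham mouse 2 or 3 or 1-day mouse 6 or library B or C (adjusted p = 0.0524 to 0.0847) and with total-count scaling, no filter on low counts or sham and 14-day libraries fitted alone (adjusted p = 0.0636 to 0.113). Ccn2, connective tissue growth factor, went from a log2 fold of 3.82 at 1 day to 2.24 at 14 days (adjusted p = 0.00597), and was lower than at 1 day (log2 fold -1.58, adjusted p = 0.00424). Fn1, fibronectin, rose by 1.91 (adjusted p = 0.0202). The call of Fn1 ended without sham mouse 2 or 3 or 1-day mouse 6 or library B or C (adjusted p = 0.0523 to 0.0813) and with total-count scaling, no filter on low counts or sham and 14-day libraries fitted alone (adjusted p = 0.0598 to 0.103).

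Of 13 elastic fibre genes 9 rose and 1 fell (median 1.52, against -0.47 at 1 day; 6 to 11 rises with 1 library left out). Eln, elastin (ENSMUSG00000029675, chromosome 5, 134702593 to 134747323), had 7.91, 5.02 and 4.09 CPM in sham and 24, 24.1 and 55.9 CPM at 14 days (log2 fold 2.59, SE 0.38, adjusted p = 0.00516), while at 1 day it did not pass (-0.95). The microfibril proteins Mfap4 and Mfap5 rose by 3.37 and 2.66, Fbln1 and Fbln5, the fibulins, by 2.04 and 1.69, and Fbn1, fibrillin, by 1.52 on the log2 scale. Fbln1 had been at -1.56 and Fbln5 at -1.01 at 1 day.

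Of 15 matrix proteases and inhibitors 9 rose and 1 fell (median 1.32, against 0.38 at 1 day; 6 to 9 rises with 1 library left out). Mmp2, gelatinase A (ENSMUSG00000031740, chromosome 8, 92827291 to 92853420), had 33.2, 24.1 and 27.7 CPM in sham and 58.3, 101 and 135 CPM at 14 days (log2 fold 1.79, SE 0.28, adjusted p = 0.00597), having been below sham at 1 day (-1.19). Mmp14, the membrane protease that activates it, rose by 1.38, and the inhibitors Timp1 and Timp2 by 2.76 and 1.19. Timp1 had been far higher at 1 day (5.83). Mmp9, gelatinase B of neutrophils, was at -0.39. Timp4 had 4.1, 4.41 and 4.15 CPM in sham and 12, 3.22 and 3.35 CPM at 14 days, so that library A stood apart from B and C, and it did not pass (log2 fold 0.55).

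Fibroblast genes were higher at 14 days in both their resting and activated sets. Of 15 resting fibroblast genes, 7 rose and 0 fell (median 0.57, against -1.24 at 1 day; 2 to 9 rises with 1 library left out), and of 14 activated fibroblast genes 11 rose and 1 fell (median 1.20, against 0.41 at 1 day; 5 to 12). Pdgfra, the platelet-derived growth factor receptor that marks the lineage, had 36.8, 36 and 35.8 CPM in sham and 46.7, 62.6 and 77.8 CPM at 14 days (log2 fold 0.78, SE 0.18, adjusted p = 0.0165). The call of Pdgfra ended without sham mouse 1, 2 or 3 or library B or C (adjusted p = 0.0531 to 0.0732). Dpt, dermatopontin, rose from 27.8, 23.5 and 27.7 to 59.3, 84 and 140.1 CPM (log2 fold 1.85, SE 0.26, adjusted p = 0.0042). Meox1, a homeobox factor of activated fibroblasts (ENSMUSG00000001493, chromosome 11, 101877510 to 101894374), rose from 7.24, 6.5 and 7.28 to 14.5, 21.2 and 35.1 CPM (log2 fold 1.75, SE 0.28, adjusted p = 0.00578). Cthrc1, a secreted protein of scar fibroblasts, rose from 0.963, 0.0674 and 0.0639 to 3.46, 4.51 and 10.2 CPM (log2 fold 3.98, SE 0.72, adjusted p = 0.01). Cthrc1 had 1 or 2 counts in sham mice 2 and 3, so its fold is imprecise. Sfrp2, a secreted modulator of Wnt (ENSMUSG00000027996, chromosome 3, 83766321 to 83774316), had 2.43, 1.25 and 1.92 CPM in sham and 31.2, 50.1 and 101 CPM at 14 days (log2 fold 5.05, SE 0.49, adjusted p = 0.00187); 16.1% of its exonic bases are shared with another gene. The member that fell was Acta2, the smooth muscle actin of myofibroblasts and vessels: 48.5, 57.9 and 42.9 CPM in sham and 38.2, 34.5 and 28.7 CPM at 14 days (log2 fold -0.56, SE 0.15, adjusted p = 0.0286). The call of Acta2 ended without sham mouse 1 or 2 or library B or C (adjusted p = 0.0771 to 0.136) and with total-count scaling (adjusted p = 0.15). Tcf21, a lineage factor of resting fibroblasts, was at 0.57, short of the threshold. The level of the resting list was 0.37, 0.56 and 0.86 in A, B and C and that of the activated list 0.74, 1.11 and 1.79. The part of fibroblast number in the matrix results was not tested.

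Among secreted signals, TGF-beta genes moved in part. Of 18 ligands, receptors and latency proteins, 7 rose, 1 fell and 12 were bounded (median 0.21; 2 to 8 rises with 1 library left out). Tgfb3 (ENSMUSG00000021253, chromosome 12, 86056745 to 86079041) had 8.42, 6.00 and 6.58 CPM in sham and 20.9, 29 and 40.2 CPM at 14 days (log2 fold 2.10, SE 0.22, adjusted p = 0.00151), with 12.4% of exonic bases shared with another gene. Tgfb2 rose by 1.42 (adjusted p = 0.0178), after 3.29 at 1 day. The call of Tgfb2 ended without sham mouse 1, 2 or 3 or library B (adjusted p = 0.0527 to 0.0712) and with no filter on low counts (adjusted p = 0.0758). Tgfb1, the ligand made by platelets and macrophages, was at -0.16 (interval -0.58 to 0.25) after 1.03 at 1 day. The inhibitory mediator Smad7 was the member that fell (8.58, 7.72 and 8.31 to 4.85, 5.6 and 5.81 CPM; log2 fold -0.60, SE 0.11, adjusted p = 0.00802; not passed with total-count scaling at adjusted p = 0.198).

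Secreted modulators of Wnt rose in 3 of 5 tested, a count that stayed at 3 with each library left out (median 2.16, against -1.22 at 1 day). They were Frzb (1.88, 1.28 and 1.6 to 8.9, 11 and 19.5 CPM; log2 fold 3.05, SE 0.30, adjusted p = 0.0013), Sfrp1 (7.49, 6.34 and 7.99 to 15.1, 34.4 and 47.8 CPM; log2 fold 2.16, SE 0.37, adjusted p = 0.00836) and Dkk3 (1.84, 0.876 and 1.21 to 10.7, 15.8 and 29.9 CPM; log2 fold 3.85, SE 0.42, adjusted p = 0.00255). Frzb and Sfrp1, like Sfrp2, are secreted decoys that bind Wnt ligands. Of 15 activin and BMP genes 4 rose and 0 fell. Fstl1, a follistatin-like glycoprotein, rose from 67.5, 43 and 49.5 to 148, 244 and 379 CPM (log2 fold 2.27, SE 0.32, adjusted p = 0.00381). Inhba, the activin A subunit, was at 1.18 without passing, after 3.89 at 1 day. Of 9 insulin-like growth factor genes, 5 rose and 1 fell (1 to 5 rises with 1 library left out). Igf1 rose by 1.32 (adjusted p = 0.0148). The call of Igf1 ended without sham mouse 2 or library B (adjusted p = 0.0536 to 0.0676) and with no filter on low counts or sham and 14-day libraries fitted alone (adjusted p = 0.055 to 0.0616). Of 12 renin-angiotensin, endothelin and natriuretic receptor genes, Ace, the angiotensin-converting enzyme, was the 1 that rose: 28.5, 32.1 and 29.4 CPM in sham against 40.8, 56.5 and 65.3 CPM at 14 days (log2 fold 0.85, SE 0.15, adjusted p = 0.00551), with a log2 fold of 0.05 at 1 day.

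**Figure D5:**
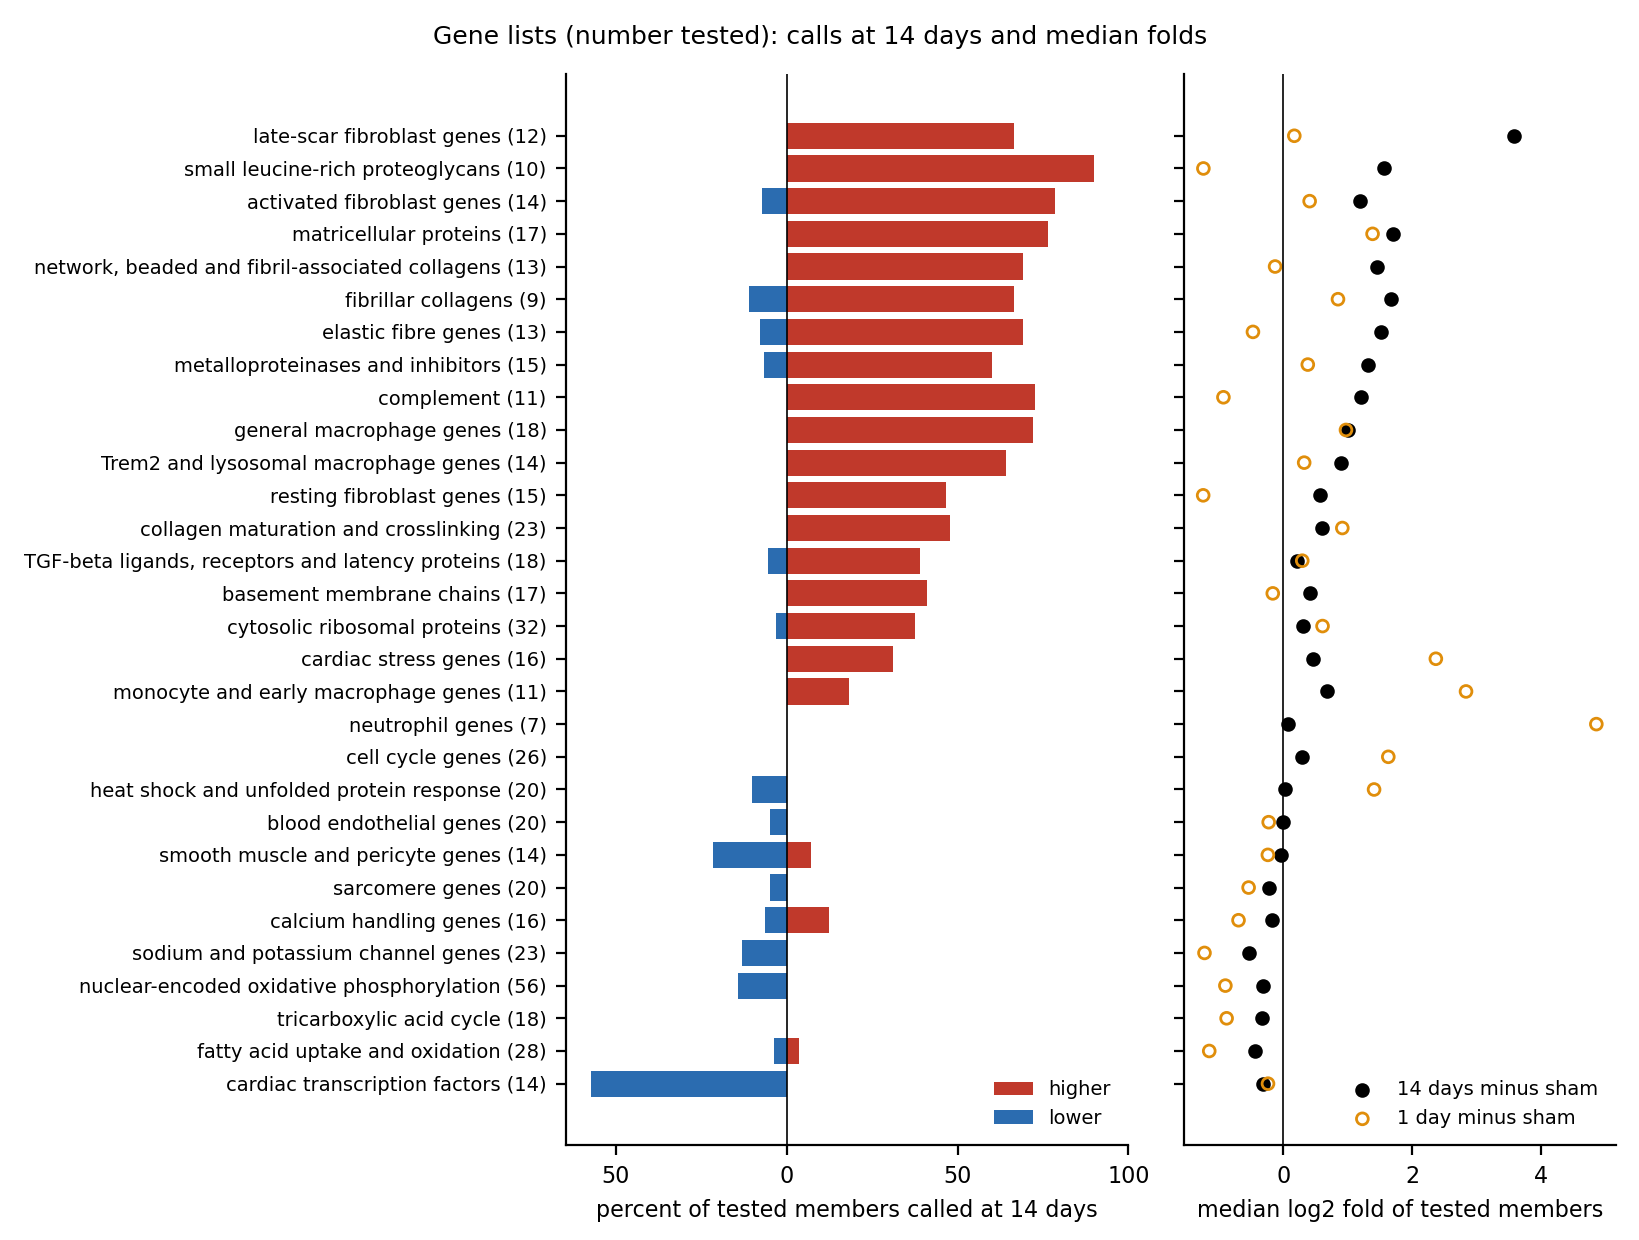
Percent of tested members called higher or lower at 14 days for 30 of the gene lists (bars, with the number tested), beside the median log2 fold over members at 14 days (black) and at 1 day (open orange). Proteoglycan, late-scar, network collagen and complement lists have medians above 1 at 14 days and at or below 0.2 at 1 day, whereas cardiac stress and neutrophil lists have their larger median at 1 day.

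Macrophage genes were still above sham at 14 days. Of 18 general macrophage genes 13 rose and 0 fell, with a median of 1.00 at 14 days and 0.97 at 1 day (4 to 17 rises with 1 library left out). Lyz2, the lysozyme of macrophages and neutrophils (ENSMUSG00000069516, chromosome 10, 117277331 to 117282321), had 63.9, 57.8 and 60.5 CPM in sham and 101, 162 and 202 CPM at 14 days (log2 fold 1.35, SE 0.20, adjusted p = 0.00381). Tyrobp, the adaptor of Trem2 and other receptors, rose from 4.44, 3.91 and 4.15 to 8.17, 10.8 and 15.5 CPM (log2 fold 1.46, SE 0.21, adjusted p = 0.0036). Cx3cr1, the fractalkine receptor, rose from 3.98, 4.72 and 4.35 to 6.06, 11 and 10.9 CPM (log2 fold 1.09, SE 0.20, adjusted p = 0.00733). C1qa, a chain of complement C1q that macrophages make, rose by 1.00 (adjusted p = 0.0138). The call of C1qa ended without sham mouse 2 (adjusted p = 0.0692). The list's level was 0.39, 1.03 and 1.40 in A, B and C, so the libraries with the most matrix RNA also had the most macrophage RNA.

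The lysosomal and lipid-handling set that goes with Trem2 rose in 9 of 14, with 0 lower (median 0.90, against 0.32 at 1 day; 4 to 10 rises with 1 library left out). Trem2 itself, a lipid-sensing receptor, had 0.879, 0.708 and 0.703 CPM in sham and 1.8, 3.22 and 4.09 CPM at 14 days (log2 fold 1.97, SE 0.33, adjusted p = 0.00508). Ctsk, cathepsin K, a protease that digests collagen (ENSMUSG00000028111, chromosome 3, 95499256 to 95509362), rose from 2.09, 1.35 and 1.34 to 5.44, 7.89 and 12.8 CPM (log2 fold 2.43, SE 0.31, adjusted p = 0.00302). Gpnmb, a lysosomal glycoprotein, rose from 0.419, 0.371 and 0.256 to 2.67, 5.1 and 5.89 CPM (log2 fold 3.64, SE 0.66, adjusted p = 0.00938). The call of Gpnmb ended without sham mouse 2 (adjusted p = 0.052). Apoe, the lipid carrier, rose by 1.05 (adjusted p = 0.0105) after -1.09 at 1 day. The call of Apoe ended without sham mouse 2 (adjusted p = 0.0586). Resident macrophage genes rose in 2 of 9 (0 to 4 with 1 library left out), with 8 bounded, against 8.75% and 76.3% of all genes. Among the 9, Lyve1, a hyaluronan receptor, was at 0.40 without passing.

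Genes of recruited cells were mostly lower than at 1 day. Of 11 monocyte and early macrophage genes 2 rose (1 to 5 with 1 library left out; median 0.68, against 2.84 at 1 day), and 10 of the 11 were lower than at 1 day. Ccr2, the chemokine receptor of blood monocytes, remained up, with 2.85, 2.19 and 3.39 CPM in sham and 5.75, 13.2 and 16.2 CPM at 14 days (log2 fold 2.09, SE 0.35, adjusted p = 0.00724), yet below its 1-day fold of 3.59 (14 days against 1 day, log2 fold -1.50, adjusted p = 0.00277). Of 7 neutrophil genes 0 were called by edgeR (1 at an unadjusted p under 0.05, 0 by DESeq2 and 0 by limma-voom) and 0 were bounded within 2-fold, and all 7 were lower than at 1 day (medians 0.08 and 4.86). Their summed level was 1.67 to 4.54 CPM in sham, 2.01 to 3.48 CPM at 14 days and 49.6 to 133 CPM at 1 day. The filter ran over all 9 libraries, so a gene scarce in sham and at 14 days could enter through its 1-day level alone. With sham and 14-day libraries alone, 3 of these 7 and 5 of the 11 monocyte and early macrophage genes passed it. The 1-day medians and the counts lower than at 1 day may therefore lean toward an early peak. Lcn2, lipocalin 2 of neutrophil granules, went from a log2 fold of 6.83 at 1 day to 0.16 (interval -1.21 to 1.53). Ccl2, the main monocyte attractant, was at -0.30 (interval -0.93 to 0.32) after 3.99 at 1 day.

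Complement genes rose in 8 of 11 tested, with 0 lower (median 1.20, against -0.93 at 1 day; 2 to 10 rises with 1 library left out). Serping1, the C1 inhibitor, rose from 29.1, 29.7 and 34.9 to 57.2, 95.2 and 119.8 CPM (log2 fold 1.54, SE 0.23, adjusted p = 0.00471). C4b rose by 1.77 (adjusted p = 0.0192). The call of C4b ended without sham mouse 1 or 2 or library B or C (adjusted p = 0.0545 to 0.0802) and with no filter on low counts or sham and 14-day libraries fitted alone (adjusted p = 0.0577 to 0.0735). The central component C3 was at 0.75 (interval -0.08 to 1.58) without passing. In a fit of sham and 14-day libraries alone 15 of 20 chemokine genes passed the filter, of which 3 rose. In the main fit 6 of the 20 rose (median 0.89, against 2.08 at 1 day, with 1 to 10 rises when 1 library was left out). Of these, Cxcr4, the receptor of Cxcl12, had 3.18, 2.39 and 2.49 CPM in sham and 5.4, 5.28 and 5.03 CPM at 14 days (log2 fold 0.96, SE 0.14, adjusted p = 0.00341), with the 14-day libraries close together.

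Calls among other immune genes differed by list, against 8.75% of all genes higher and 5.64% lower. Of 7 dendritic cell genes 4 rose, a count that ran from 0 to 6 with 1 library left out. In a fit of sham and 14-day libraries alone 3 of the 7 passed the filter on low counts, of which 0 rose. Of 7 MHC class II genes 1 rose, H2-DMa (0 to 6 with 1 library left out and 3 with total-count scaling), while H2-Aa was at 0.91 (adjusted p = 0.0591) and Cd74 at 0.71 (adjusted p = 0.0812). The call of H2-DMa ended without sham mouse 1 or 2 or library B or C (adjusted p = 0.0735 to 0.0927). Of 9 MHC class I genes 0 were called by edgeR (4 at an unadjusted p under 0.05, 1 by DESeq2 and 0 by limma-voom) and 8 were bounded. Interferon-stimulated genes rose in 2 of 15, near the share over all genes, with 12 bounded. T and natural killer cell genes were mostly under the filter: 4 of 17 were tested, of which 0 passed by edgeR (1 at an unadjusted p under 0.05, 0 by DESeq2 and 0 by limma-voom). Of 3 mast cell genes tested 1 rose and 2 were bounded within 2-fold. The 1 was Cpa3, the carboxypeptidase of mast cells, which rose by 1.69 (adjusted p = 0.012). The call of Cpa3 ended without sham mouse 2 or library B (adjusted p = 0.0614 to 0.0698). Of 3 B and plasma cell genes tested 1 rose and 0 fell. It was Ighm, the immunoglobulin heavy chain of B cells, which rose by 1.32 (adjusted p = 0.0269). The call of Ighm ended without sham mouse 1, 2 or 3 or 1-day mouse 6 or library B or C (adjusted p = 0.0549 to 0.104) and with limma-voom, no filter on low counts or sham and 14-day libraries fitted alone (adjusted p = 0.0718 to 0.11).

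Blood endothelial genes lay near the sham level: of 20 tested 0 rose, 1 fell and 18 were bounded, with a median of 0.00 (-0.23 at 1 day). The shares over all genes were 8.75% higher, 5.64% lower and 76.3% bounded. Pecam1, the junction protein CD31, had 70, 73 and 72.3 CPM in sham and 80.7, 79 and 70.3 CPM at 14 days (log2 fold 0.10, interval -0.13 to 0.33), with overlapping groups. Kdr, the main receptor for vascular endothelial growth factor, was at -0.22 (interval -0.54 to 0.10) after -1.24 at 1 day. Lymphatic endothelial genes rose in 4 of 6 (median 1.13, against -0.33 at 1 day; 0 to 5 with 1 library left out). Ccl21a, the lymphatic chemokine, which has near-identical copies (ENSMUSG00000094686, chromosome 4, 42772860 to 42773993), had 2.81, 3.37 and 4.66 CPM in sham and 7.13, 18.6 and 24.7 CPM at 14 days (log2 fold 2.24, SE 0.43, adjusted p = 0.0119). The call of Ccl21a ended without sham mouse 2 (adjusted p = 0.0553). Mmrn1 rose by 1.58 (adjusted p = 0.0183). The call of Mmrn1 ended without sham mouse 1 or 2 or library B (adjusted p = 0.0515 to 0.0704) and with no filter on low counts or sham and 14-day libraries fitted alone (adjusted p = 0.0507 to 0.072). The lineage factor Prox1, at -0.25 (interval -0.63 to 0.12), and the growth factor receptor Flt4, at 0.38 (interval 0.01 to 0.75), did not pass.

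Of 14 smooth muscle and pericyte genes 1 rose, 3 fell and 13 were bounded (median -0.03), against 8.75%, 5.64% and 76.3% of all genes. Pdgfrb, the pericyte and fibroblast receptor, rose (log2 fold 0.49, SE 0.10, adjusted p = 0.0101; not passed with total-count scaling at adjusted p = 0.0752). Myocd, the smooth and heart muscle coactivator, fell from 68, 65.7 and 59.2 to 48.7, 39 and 34.7 CPM (log2 fold -0.66, SE 0.13, adjusted p = 0.00816; not passed with total-count scaling at adjusted p = 0.0567). Schwann cell genes rose in 3 of 6 (median 0.76), led by Pmp22, a myelin protein that fibroblasts also make (17.1, 15.9 and 17.8 to 25.5, 34.6 and 44.8 CPM; log2 fold 1.05, SE 0.18, adjusted p = 0.00597). Of 7 epicardial genes Tbx18 rose (log2 fold 0.87, SE 0.16, adjusted p = 0.00677) and Wt1 fell (log2 fold -0.88, SE 0.21, adjusted p = 0.0197). The call of Wt1 ended without sham mouse 1, 2 or 3 or library B (adjusted p = 0.052 to 0.0867) and with total-count scaling (adjusted p = 0.12). None of 8 adipocyte genes passed the filter.

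Cell cycle and heat shock genes were mostly lower than at 1 day. Of 26 cell cycle genes 0 were called by edgeR (3 at an unadjusted p under 0.05, 0 by DESeq2 and 0 by limma-voom), 10 were bounded and 23 were lower than at 1 day (medians 0.30 and 1.63). Mki67, present in dividing cells, was at 0.34 (interval -0.59 to 1.27). Heat shock and unfolded protein genes had 0 rises and 2 falls of 20, with 15 bounded (medians 0.03 and 1.41). Over all genes 8.75% rose, 5.64% fell and 76.3% were bounded, so the bounded share of the heat shock list was near that of all genes. Of 20 immediate early genes 3 rose and 4 fell. The falls were of AP-1 genes: Jun had 21, 20.6 and 21.3 CPM in sham and 13.9, 13.6 and 14.1 CPM at 14 days (log2 fold -0.60, SE 0.12, adjusted p = 0.00993; not passed with total-count scaling at adjusted p = 0.154). Jund had 14.8, 14.2 and 13.7 CPM in sham and 5.16, 3.55 and 4.82 CPM at 14 days (log2 fold -1.67, SE 0.25, adjusted p = 0.00452), with 52.6% of its exonic bases shared with another gene and a fold of -0.69 under the offset for GC content. Of 32 cytosolic ribosomal protein genes 12 rose and 1 fell within small bounds (median 0.31; 27 bounded; 1 to 16 rises with 1 library left out, 2 with total-count scaling and 6 with the offset for GC content), as Rps14 did (log2 fold 0.58, SE 0.11, adjusted p = 0.00778).

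Calls in the remaining lists are likewise set against 8.75% of all genes higher and 5.64% lower. Of 16 Adam and Adamts proteases 4 rose and 1 fell (0 to 7 rises with 1 library left out and 1 with total-count scaling), and of 8 hyaluronan and versican genes 2 rose (0 to 3), among them Vcan, versican, at 1.48 (adjusted p = 0.0157). The call of Vcan ended without sham mouse 2 or library B or C (adjusted p = 0.05 to 0.0721) and with total-count scaling or no filter on low counts (adjusted p = 0.0537 to 0.0658). Glucose use had 2 falls of 23 with 19 bounded, and regulators and targets of PPAR and ERR 1 rise and 2 falls of 19 with 13 bounded, against 8.75% of all genes higher and 5.64% lower. The falls included that of Ppard, a PPAR form found in muscle, from 7.7, 6.98 and 6.58 CPM to 4.81, 4.05 and 4.13 CPM (log2 fold -0.71, SE 0.12, adjusted p = 0.00585; not passed with total-count scaling at adjusted p = 0.0861). The 14 genes of ketone and branched-chain oxidation and the 7 tested of 13 messenger RNAs of the mitochondrion had 0 calls by edgeR (3 and 1 at an unadjusted p under 0.05, 0 and 1 by DESeq2, 0 by limma-voom), with medians of -0.29 and -0.48. Of 13 NRF2 targets and metallothioneins 2 rose and 10 were bounded. Red blood cell genes had 1 fall of 5 and platelet genes 0 calls of 3 by edgeR (0 at an unadjusted p under 0.05, 0 by DESeq2 and 0 by limma-voom).

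Id1 and G0s2 were among the genes named for the largest falls. Id1, an inhibitor of helix-loop-helix factors that BMP signals induce, had 10.6, 10.9 and 11.4 CPM in sham and 5.85, 4.51 and 5.31 CPM at 14 days (log2 fold -1.07, SE 0.12, adjusted p = 0.00151). G0s2, an inhibitor of triglyceride lipase, had 12.1, 16.4 and 20.1 CPM in sham and 7.44, 7.74 and 5.85 CPM at 14 days (log2 fold -1.20, SE 0.17, adjusted p = 0.00336). In both, the 14-day libraries lay close together below all sham libraries, a separation that the naming rule required. The 2 genes that passed the 2-fold test downward were low: Nrtn, the neurotrophic factor neurturin (ENSMUSG00000039481, chromosome 17, 56751325 to 56757530), had 1.88, 1.62 and 1.92 CPM in sham and 0.346, 0.205 and 0.368 CPM at 14 days, with a fold of -2.56 that was -0.84 under the offset for GC content (adjusted p = 0.0801). Ccdc85b (ENSMUSG00000095098, chromosome 19, 5453180 to 5457894) fell from 1.97, 2.02 and 2.62 to 0.208, 0.0879 and 0.245 CPM and shares 24.7% of its exonic bases with another gene.

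The remaining values show genes with large early changes that were near sham again. Of the genes bounded within 2-fold of sham at 14 days, those with the largest 1-day rises included Fstl3, a follistatin-like inhibitor of activin, which had 1.31 ± 0.432 CPM in sham, 21.9 ± 5.78 CPM at 1 day and 1.67 ± 0.329 CPM at 14 days (SD, n = 3 each; log2 fold at 14 days 0.29, interval -0.39 to 0.97). Uck2, a uridine-cytidine kinase of nucleotide salvage, went from 3.43 at 1 day to 0.15 (interval -0.37 to 0.67), with 8.03, 11.9 and 12 CPM at 14 days against 9.71, 10.4 and 8.37 CPM in sham. Among those with the largest early falls, Pcsk6, a proprotein convertase, went from -2.10 to 0.37 (interval -0.14 to 0.88) and Maob, a monoamine oxidase of mitochondria, from -2.05 to -0.42 (interval -0.93 to 0.09). For Fstl3, 47.3% of exonic bases are shared with another gene.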

How the data were processed

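RNA was measured in 9 mice, 1 library each, by stranded sequencing of total RNA after depletion of ribosomal RNA, following TRIzol extraction, per the labels' protocols. The submitters' processing notes name STAR 2.7.1a and GRCm38 (mm10). The authors deposited raw counts, 1 whole number for each gene and library. Which program and annotation gave them, and how strand and multiply mapping reads were treated, is not given in the sources used here, so overlapping genes are uncertain. The mitochondrial messenger RNAs mt-Co2, mt-Co3 and mt-Atp6 had 0 to 2 counts in each library. The mitochondrial shares given above therefore cover only part of the mitochondrial genes, and the cause was not tested. Of 167 genes named by rule, 54 share exonic bases with another gene in GENCODE M21 and 25 share at least 10%: Adam19, Atcayos, C1s1, Ccdc85b, Ckm, Cox5a, Csf1r, Cxcl16, Endog, Fbn1, Fstl3, H2-DMa, Igf2, Jund, Mt2, Myh7, Nppa, Nr2f6, Rpl32, S100a4, Sfrp2, Smtn, Syt12, Tbx18 and Timp3. Symbols and positions come from GENCODE M21, which held 36429 of the 38293 gene IDs.

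All 9 libraries were fitted together, with group as the only term, in edgeR 4.0.16 (R 4.3.3; filterByExpr, TMM, robust quasi-likelihood F-test); glmTreat tested against a log2 fold of 1. A gene was bounded within 2-fold where its 95% interval lay between -1 and 1. The fit was tested on simulated counts, with 50 genes changed at each of 4 log2 folds. It recovered 16% of those changed by 0.5, 72% by 1, 96% by 2 and 98% by 3. Of its 153 calls 12 were false. Many changes near a log2 fold of 0.5 would thus be missed. The changed genes were drawn only from those above a floor of sham counts, and each gene was simulated on its own. These rates therefore do not cover scarce genes or shifts shared by many genes, such as the one that went with GC content. Alternatives were DESeq2 1.42.0, limma 3.58.1 (voom), other scalings and filters, sham and 14-day libraries alone, each library left out and, chosen after the data were seen, an offset for GC content and length. Replicates of a group differed beyond counting noise (chi-square per degree of freedom 6.90 to 89.7), and no batch is labelled. P-values measure the spread between mice.

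Genes were named by these rules: the 12 largest called changes in each direction among genes reaching 10 CPM in either group mean, with groups not overlapping and without predicted, clone or unnamed genes (such as Gm symbols); the 6 most abundant in each direction past the 2-fold test; the 3 most abundant called members of each list with 1 in the other direction; the 6 largest early changes in each direction among genes bounded at 14 days; and any other list member, by value. Some genes that these rules name are counted in their lists but not reported here. The members and lists were chosen with earlier results of these data known, so the lists are a description. Promoter sequences are RefSeq's, GRCm38.p6.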

Additional observations from a re-analysis of the deposited data

Results flagged for a closer look

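For 22 named genes the direction against sham was opposite at 1 day and at 14 days, each past the test, and the 2 times differed in the same fit. Both differences share the sham libraries. In 18 of them 14 days was above 1 day. These were genes of matrix and of its fibroblasts, with log2 folds of 14 days over 1 day of 9.39 for Angptl7, 2.65 for Dcn, 2.9 for Ogn, 1.45 for Sparcl1, 3.6 for Fbln1, 2.98 for Mmp2, 1.98 for Timp2, 1.41 for Adamts5, 3.09 for Dpt, 3.24 for Pi16, 3.38 for Sfrp1 and 1.82 for Igfbp4. The remainder were complement genes (Serping1 2.47, C1s1 2.32), Apoe (2.14), Gas6 (1.11), a ligand for receptors that clear dead cells, Ighm (2.49) and the Schwann cell cadherin Cdh19 (1.5). In 4 genes 14 days was below 1 day: plakoglobin (Jup) at -0.769, the AP-1 member Fosl2 at -1.28, the heat shock protein Hsph1 at -0.844 and the ribosomal protein Rps2 at -0.851. The 14-day calls of 14 of the 22 ended with a single library left out (adjusted p = 0.0518 to 0.153), each of them without sham mouse 2. Those of Ogn, Sparcl1, Adamts5, Pi16, Gas6, Rps2 and Ighm also ended without sham mouse 1 or 3 or library B or C, and that of Ighm without 1-day mouse 6. The calls of Jup and Fosl2 also ended without sham mouse 1 or library B or C, that of C1s1 without sham mouse 1 or library B and that of Hsph1 without library B or C. For Apoe, Cdh19 and Igfbp4 sham mouse 2 was the sole such library of the 9. Total-count scaling ended the calls of Sparcl1, Adamts5, Pi16 and the 4 genes that fell. Angptl7 was near the limit of detection at 1 day, so its value is imprecise. The cause of these turns was not tested.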

How the results depend on the processing

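Calls against sham depended on scaling and on single libraries. Total-count scaling gave 832 calls, 720 higher and 112 lower. With sham and 14-day libraries alone 1369 genes were lower and 16 passed the 2-fold test, which 3 genes passed with limma-voom and 25 with no filter on low counts. With 1 library left out, calls ran from 478 to 3221, rises from 314 to 1823, falls from 164 to 1469, genes past the 2-fold test from 3 to 172, genes bounded within 2-fold from 9968 to 11181, and the difference in mitochondrial share from -1.57 to 1.81 percentage points. Srf turned from a fall to 0.059 under the offset for GC content. Of 269 called genes followed, 108 kept their call with every library left out, and the call ended for 160 without sham mouse 2, 116 without B, 113 without C, 102 without sham mouse 1, 97 without sham mouse 3 and 4 to 16 without any other library. It ended for 84 with total-count scaling, 38 with the offset besides that of Srf, 37 with no filter, 28 with limma-voom, 23 with sham and 14-day libraries alone and 2 to 5 under the other settings. The cause was not tested. No paired analysis was possible because the groups share no replicate numbers. Genes under about 1 CPM had few counts a library, and their folds are imprecise.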

Other observations

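Some genes of tendon, cartilage and plasma cells stayed under the filter on low counts and were not tested; they were picked after their counts were seen. Tnmd, the tendon gene tenomodulin, had 0 counts in each of the 3 sham and the 3 one-day libraries and 8, 15 and 28 in A, B and C. Chad, the cartilage protein chondroadherin, had 0 counts in each of these 6 libraries and 3, 5 and 4 at 14 days. A count of 0 allows up to 3 counts in a library, and these values cover counting error only. Col24a1, a fibrillar collagen, had 12, 3 and 0 counts in sham and 12, 11 and 64 at 14 days, most of them in C. Jchain, the joining chain of immunoglobulin made by plasma cells, had 8, 3 and 4 counts in sham and 11, 84 and 35 at 14 days, with B the highest. Lrrc15, a gene of myofibroblasts in other tissues, had 1, 3 and 0 counts in sham and 3, 4 and 13 at 14 days. C1qtnf3, a secreted C1q and TNF related protein, was tested but fell outside the rule for named genes and was likewise picked by its value: it had 0.0837, 0.0674 and 0 CPM in sham and 3.25, 8.62 and 13.2 CPM at 14 days (edgeR, adjusted p = 0.00507), and its fold is imprecise because sham libraries held almost no counts. Of unplaced or small RNA entries, the microRNA gene Gm23935 had 52.4, 47.1 and 98.5 CPM in sham and 0.727, 0.147 and 0.45 CPM at 14 days (edgeR, adjusted p = 0.0327); libraries of total RNA hold such short transcripts only in part.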
